A study of Mus musculus with 22 samples.

Results

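The genes described here are 36 cell cycle and mitosis genes, chosen by symbol from the 29367 genes of the count table. They are grouped by the step of the cycle that they serve: 3 genes of G1 entry (Ccnd1, Ccnd2 and Cdk4), 13 of S phase (Ccne1, Ccne2, Cdk2, Mcm2 to Mcm7, Pcna, Rrm1, Rrm2 and Tyms) and 20 of G2 and mitosis, called G2/M genes (Mki67, Top2a, Ccna2, Ccnb1, Ccnb2, Cdk1, Cdc20, Cdc25c, Aurka, Aurkb, Bub1, Bub1b, Plk1, Birc5, Cenpe, Cenpf, Kif11, Kif20a, Kif23 and Ube2c). The libraries were made from mRNA bound to HA-tagged ribosomes, pulled down from the optic nerve of RiboTag mice (Rpl22 HA/HA) with Cre under the mouse GFAP promoter (line 73.12), so that the tag marks cells in which this promoter is or has been active, astrocytes above all. All mice were 3 to 4 months old, on a C57Bl/6 background, and had received a microbead injection into one eye to raise the intraocular pressure. Tissue was taken 7 or 30 days later from the unmyelinated optic nerve head (ONH) and from an equal length of the myelinated optic nerve proper (ONP) just behind it. There were 4 libraries of each region at 7 days and 7 of each at 30 days, 22 in all, and each pooled 4 mice (2 males and 2 females). Both regions were dissected from the same mice. At 30 days the ONH and ONP libraries of the same replicate number were taken as a pool, a match that the labels do not state. The 7 day libraries could be tied to a group but not to single samples of the labels and were not paired. Samples of uninjured mice were not analysed here, so no value below says how a gene stood before the injection.

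In a dividing cell, D cyclins bind Cdk4 and together they phosphorylate the RB protein, which releases E2F transcription factors. E2F factors then turn on the genes of S phase, among them the MCM helicase subunits, the sliding clamp Pcna and the enzymes that make deoxynucleotides. The genes of G2 and mitosis come on later, through CCAAT boxes and the cell cycle homology region (CHR), at which the DREAM and MuvB complexes act. Most mature astrocytes are held out of the cycle, and a return to it is one of the known responses of astrocytes to injury. D cyclins are also expressed in cells that do not divide.

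The promoters of the 36 genes were searched for the letters of these elements, and 6 are shown because their genes were called in a comparison or are much studied regulators of mitosis. RefSeq promoter sequences on GRCm38.p6 were at hand for 28 of the 36 genes. The entry for Ccnd1, Ccnd2, Ccne2, Mcm4, Ccna2, Cdc25c, Aurkb and Kif20a was missing. Windows of 300 bases (250 before the start of transcription and 50 after it) were searched on both strands for E2F letters (TTTGGCGC, TTTCCCGC, TTTCGCGC or TTTGCCGC), for CHR letters (TTTGAA or TTCGAA) and for CCAAT. The stretches are written 5′ to 3′ in the direction of the gene, and capitals mark every match to one of these letters. They end before the RefSeq start, or before the GENCODE start of the gene where that comes first. Distances are counted from the RefSeq start, so a match close to it can lie outside the stretch printed. The S phase promoters shown are those of Mcm5 (chr8:75109349-75109508, plus strand), Mcm6 (chr1:128359706-128359865, minus strand) and Rrm2 (chr12:24708094-24708240, plus strand), and the capitals in Rrm2 are a CCAAT alone.
Mcm5: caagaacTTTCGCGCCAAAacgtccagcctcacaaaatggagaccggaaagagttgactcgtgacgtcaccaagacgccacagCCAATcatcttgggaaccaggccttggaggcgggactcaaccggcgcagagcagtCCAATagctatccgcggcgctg
Mcm6: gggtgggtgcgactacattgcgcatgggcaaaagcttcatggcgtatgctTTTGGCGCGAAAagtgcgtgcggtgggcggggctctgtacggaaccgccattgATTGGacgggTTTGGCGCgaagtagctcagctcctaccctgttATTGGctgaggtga
Rrm2: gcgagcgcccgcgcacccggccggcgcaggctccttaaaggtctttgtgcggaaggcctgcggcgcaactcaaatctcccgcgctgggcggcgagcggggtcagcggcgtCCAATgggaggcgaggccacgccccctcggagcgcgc
The G2/M promoters shown are those of Ccnb1 (chr13:100786571-100786646, minus strand), Cdk1 (chr10:69352939-69353072, minus strand) and Cdc20 (chr4:118437353-118437503, minus strand).
Ccnb1: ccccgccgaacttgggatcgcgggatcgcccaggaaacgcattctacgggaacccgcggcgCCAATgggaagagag
Cdk1: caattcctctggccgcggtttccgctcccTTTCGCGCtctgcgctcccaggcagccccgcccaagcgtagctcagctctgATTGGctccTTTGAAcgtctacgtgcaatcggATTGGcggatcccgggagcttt
Cdc20: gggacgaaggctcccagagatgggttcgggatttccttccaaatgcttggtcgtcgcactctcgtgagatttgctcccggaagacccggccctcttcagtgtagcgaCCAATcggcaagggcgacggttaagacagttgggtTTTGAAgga
Mcm5 held its E2F letters 153 and 149 bases before the start, on opposite strands and overlapping each other, and Mcm6 held them 110, 106 and 47 bases before. Cdk1 was the G2/M gene that held E2F letters, at 131 bases before the start, together with CHR letters at 71 and 15 bases. The CHR letters at 15 bases lie outside the stretch printed. Cdc20 held CHR letters 18 bases before the start and CCAAT at 53 and 8 bases, the CCAAT at 8 bases being outside the stretch printed.

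E2F letters were found in 5 of 12 S phase promoters (11 genes, Mcm7 having 2 promoters) and in 1 of 16 G2/M promoters, beside 2.26% of all 32851 promoters in the table. CHR letters were found in 13 of 16 G2/M promoters and in 2 of 12 S phase promoters, beside 19.2% of all promoters. CCAAT was found in 10 of the 12 and 15 of the 16, beside 37.4%. Of the 87 matches in these promoters, 2 overlapped a match of another kind. The same searches gave E2F letters in 14 of 46 promoters of other replication genes and CHR letters in 35 of 51 promoters of other mitosis genes, lists that are described at the end. A match of letters is a description of the sequence and not evidence of binding in these cells.

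Total counts per library ranged from 16292489 to 33307092, so that 3 counts, taken as the smallest amount that can be told from 0, equalled 0.0901 to 0.184 CPM (counts scaled to the size of the library). This limit covers counting error only. CPM values below were normalized together over the 22 libraries by TMM, a method that also corrects for a few very abundant genes. Summed over 10 markers, astrocyte genes gave 14521 to 33574 CPM per library. Transcripts of other cells were present as well: 8 oligodendrocyte markers summed to 13269 to 40578 CPM in the ONH and 25098 to 105230 CPM in the ONP, and 10 markers of microglia and macrophages summed to 180 to 4588 CPM over all libraries. In bulk libraries of this kind, fewer cells of a type and less RNA per cell cannot be told apart. The ONH library of pool 7 at 30 days stood apart in 2 pituitary hormones, with 87.5 CPM of Prl and 90.8 CPM of Gh, while the other 10 ONH libraries held at most 9.02 and 3.70 CPM. Results that rest on pool 7 are therefore also given without it.

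The 3 groups of genes were expressed at different levels. Per kb of exon, so that genes of unequal length can be compared, the mean over the 22 libraries was 47.3 to 86.4 CPM per kb for the G1 entry genes, 0.427 to 29.0 for the S phase genes (median 1.88) and 0.0631 to 2.44 for the G2/M genes (median 0.463). Ccnd1 was the highest of all with 86.4 CPM per kb, followed by Ccnd2 with 60.2 and Cdk4 with 47.3. Pcna, the clamp that holds DNA polymerase on its template, led the S phase genes with 29.0 CPM per kb, and Mcm4 came next with 7.17. Cdc20, which activates the anaphase promoting complex, led the G2/M genes with 2.44 CPM per kb. Ccnb2 and Aurka followed with 1.01 each.

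**Figure D1:**
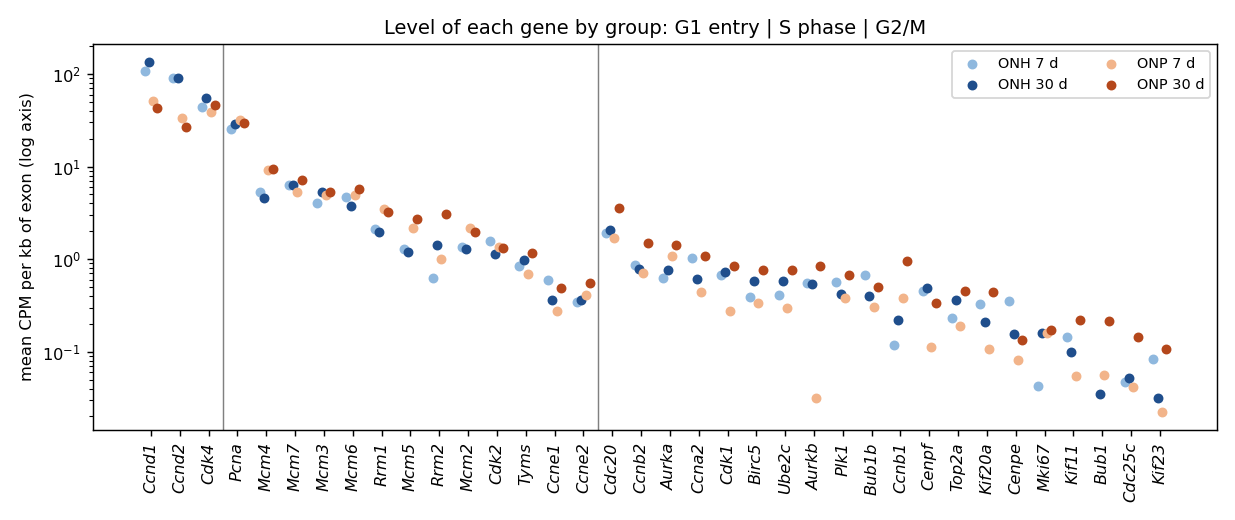
Mean level of each gene in each of the 4 groups, in CPM per kb of exon on a log axis, with the genes of G1 entry, S phase and G2/M separated by grey lines and ordered by their mean over all libraries. The G1 entry genes lie highest, Pcna stands above the other S phase genes, and most G2/M genes lie under 1 CPM per kb. Bub1 at 7 days in the ONH is not drawn, since all 4 libraries held 0 counts.

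Many G2/M genes were close to the limit of detection. Only 8 of the 20 had at least 3 counts in all 22 libraries (Ccna2, Ccnb2, Cdk1, Cdc20, Aurka, Birc5, Cenpf and Top2a), and 12 were at 0 in at least 1 library. Of the S phase genes, 11 of 13 had at least 3 counts in every library, with Ccne1 and Ccne2, the cyclins that drive entry into S phase, as the exceptions. The lowest member was Cdc25c, the phosphatase that activates Cdk1, at a mean of 0.388 CPM. Bub1, a kinase of the spindle checkpoint, held 0 counts in all 4 ONH libraries at 7 days and 0 to 14 counts in the 7 ONH libraries at 30 days. In the ONP it held 0, 0, 0 and 26 counts at 7 days, and 5 to 48 counts (median 12) at 30 days. Kif23, a motor of the central spindle, held 0, 1, 2 and 44 counts in the ONH at 7 days. Bub1, Cdc25c and Kif23 did not pass the filter on low counts in the comparison of 30 with 7 days in the ONH, nor in that of the regions at 30 days, and neither these 3 nor Aurkb and Kif20a passed it for the regions at 7 days. All 36 passed it in the ONP comparison of 30 with 7 days. A gene that is high in a single group can pass the filter through that group.

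The plot of summed levels shows how the 3 groups of genes varied between libraries. The summed S phase level was 206.6 ± 21.6 CPM (SD) over the 7 ONH libraries of 30 days, 202.3 ± 28.1 (n = 4) in the ONH at 7 days, 271.8 ± 35.6 (n = 7) in the ONP at 30 days and 254.1 ± 7.79 (n = 4) in the ONP at 7 days. The summed G2/M level was 37.9 ± 17.8 CPM in the ONH at 30 days and 38.6 ± 18.5 in the ONH at 7 days. In the ONP it was 53.9 ± 37.7 at 30 days and 23.1 ± 5.27 at 7 days. As a share of the S phase sum, the G2/M sum was 7.34% to 11.0% in the 4 ONP libraries at 7 days and 7.77% to 40.0% in the 7 ONP libraries at 30 days, so the ranges overlapped at their lower end. In the ONH the share was 7.13% to 27.5% at 7 days and 10.7% to 32.4% at 30 days.

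**Figure D2:**
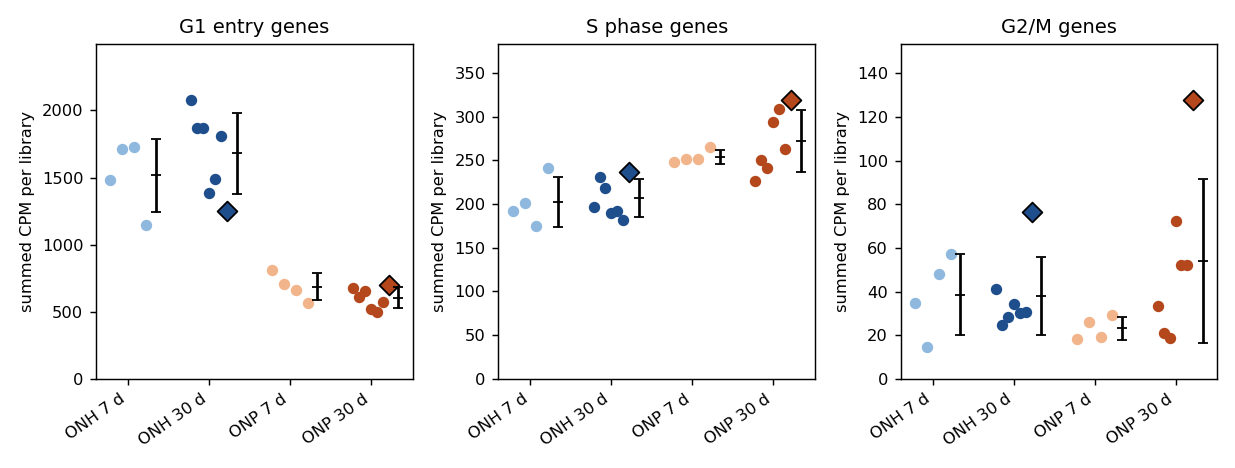
Summed CPM of the G1 entry, S phase and G2/M genes in each library (circles, with diamonds for pool 7 at 30 days) by region and day, with bars for the mean ± SD. The G1 entry sums of the ONH all lie above those of the ONP, and the G2/M sum is highest in pool 7 at 30 days in both regions, with 76.5 CPM in the ONH and 127.9 CPM in the ONP.

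The first question was whether the regions differed. At 30 days, 10 of the 33 members tested passed the threshold (an adjusted p under 0.05 over all genes tested, edgeR's quasi-likelihood test), 3 of them higher in the ONH and 7 lower, where 41.8% of the 15133 genes tested were called. The 3 higher genes were all 3 genes of G1 entry, where 21.8% of all genes were called higher. Among the S phase genes, 6 of 13 were called lower in the ONH, where 20% of all genes were called lower, and their median log2 fold change (log2FC) was -0.59 beside -0.01 for all genes tested. Of the 17 G2/M genes tested, Ccnb1 alone was called, and the median was -0.63, which was -0.12 without ONP library 7 and -0.99 without ONH library 7. The count of 10 in 33 lies below the share of all genes called, and nothing is read from it alone.

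Ccnd1 encodes cyclin D1 (chr7:144929931-144939925, minus strand, GRCm38). Its level at 30 days was 492 to 838 CPM (median 572) in the ONH and 149 to 308 CPM (median 199) in the ONP. The regions did not overlap, which was so for 16.4% of all genes tested at 30 days. It was upregulated in the ONH with a log2FC of 1.65 ± 0.17 (SE, adjusted p = 4.37e-06), and higher there in 7 of 7 pools. At 7 days the 4 ONH libraries held 401, 413, 532 and 698 CPM and the 4 ONP libraries 216, 226, 247 and 277 CPM. Here too the regions did not overlap, and the log2FC was 1.10 ± 0.20 (adjusted p = 0.00523).

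Ccnd2, cyclin D2 (chr6:127125162-127152193, minus strand), showed the same order. Its level at 30 days was 498 to 1131 CPM (median 860) in the ONH and 157 to 322 CPM (median 254) in the ONP. The log2FC was 1.78 ± 0.19 (adjusted p = 5.9e-06), and the gene was higher in the ONH of 7 of 7 pools. At 7 days the ONH libraries held 599, 869, 967 and 1014 CPM and the ONP libraries 199, 303, 305 and 463 CPM, with a log2FC of 1.46 ± 0.26 (adjusted p = 0.00473). Both D cyclins thus lay apart between the regions at both days. Cdk4, their kinase partner (chr10:127063534-127067920, plus strand), differed much less. It held 152 to 203 CPM (median 176) in the ONH and 140 to 165 CPM (median 150) in the ONP at 30 days, ranges that overlapped, and its log2FC was 0.24 ± 0.08 (adjusted p = 0.0253). Its call was lost without ONH library 6, ONH library 7 or ONP library 5 (log2FC 0.18 to 0.21) and without both regions of pool 7 (adjusted p = 0.116). It was also lost with no filter beyond 1 count (adjusted p = 0.114) and with all 4 groups in a single fit (adjusted p = 0.0612). At 7 days Cdk4 did not pass the test, with 100, 148, 163 and 166 CPM in the ONH and 122, 124, 126 and 141 CPM in the ONP.

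The S phase genes that were called lay the other way. Mcm4, a subunit of the MCM helicase that unwinds DNA at the fork (chr16:15623897-15637400, minus strand), held 8.32 to 24.7 CPM (median 15.7) in the ONH and 30.0 to 36.7 CPM (median 35.3) in the ONP at 30 days. The regions did not overlap, the log2FC was -1.04 ± 0.19 (adjusted p = 0.000535), and the gene was lower in the ONH of 7 of 7 pools. At 7 days the ONH libraries held 7.75, 16.4, 26.1 and 26.9 CPM and the ONP libraries 27.8, 34.2, 35.2 and 36.1 CPM. These did not overlap either, but the gene did not pass the test at 7 days (log2FC -0.77).

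Mcm5, another helicase subunit whose promoter is shown above (gene at chr8:75109569-75128439, plus strand), held 2.29 to 9.01 CPM (median 3.87) in the ONH and 5.03 to 17.5 CPM (median 10.5) in the ONP at 30 days. The ranges overlapped, the log2FC was -1.16 ± 0.37 (adjusted p = 0.0184), and the gene was lower in the ONH of 7 of 7 pools. Mcm6 (chr1:128331590-128359664, minus strand) held 10 to 23.7 CPM (median 17.1) in the ONH and 19.6 to 37.7 CPM (median 27.2) in the ONP, with a log2FC of -0.59 ± 0.19 (adjusted p = 0.0232), and was lower in the ONH of 7 of 7 pools. Its call was lost without ONP library 7 (adjusted p = 0.0532). Mcm2 (chr6:88883474-88898780, minus strand) was near the threshold, with 5.38 to 12.1 CPM (median 8.93) in the ONH against 8.02 to 18.8 CPM (median 13.1), a log2FC of -0.61 ± 0.24 and an adjusted p of 0.049. It was lower in the ONH of 5 of 7 pools, and its call was lost without ONH library 1, 2, 4 or 6 or ONP library 4, 5, 6 or 7 (log2FC -0.62 to -0.52). The other 2 helicase subunits, Mcm3 and Mcm7, did not pass, with log2FC of -0.01 and -0.18. The 6 subunits work as a ring, and 4 of the 6 were called lower in the ONH, where 20% of all genes were. The call of Mcm5 was lost by limma-voom (log2FC -0.97, adjusted p = 0.053), as was that of Mcm2 (adjusted p = 0.123), which was also lost with no filter beyond 1 count (adjusted p = 0.0548).

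Rrm1 and Rrm2 are the large and small subunits of ribonucleotide reductase, which makes deoxynucleotides. Rrm1 (chr7:102441695-102469771, plus strand) held 15.7 to 33.6 CPM (median 19.9) in the ONH and 30.6 to 47.4 CPM (median 34.5) in the ONP at 30 days, with a log2FC of -0.72 ± 0.16 (adjusted p = 0.00233). Rrm2, the subunit that limits the enzyme in cycling cells (chr12:24708241-24714146, plus strand), held 1.32 to 9.06 CPM (median 3.51) in the ONH and 3.57 to 15.7 CPM (median 7.84) in the ONP. Its log2FC was -1.10 ± 0.42 (adjusted p = 0.0446), and it was lower in the ONH of 7 of 7 pools. The call was lost without ONH library 1, 2, 3, 5 or 6 or ONP library 4, 5, 6 or 7 (log2FC -1.15 to -0.89). Pcna did not pass, with 59.4 to 81.7 CPM in the ONH and 65.5 to 80.7 CPM in the ONP (log2FC -0.04 ± 0.10, adjusted p = 0.756). At 7 days Pcna held 47.4, 62.9, 63.0 and 68.6 CPM in the ONH and 70.4, 73.0, 77.7 and 83.9 CPM in the ONP. These libraries did not overlap, which was so for 21.7% of all genes tested at 7 days, and the gene did not pass (log2FC -0.31 ± 0.16, adjusted p = 0.238). At 7 days no S phase gene passed the test, and 2 of 13 had an unadjusted p under 0.05 (Mcm4 and Rrm1), where 28.9% of all genes did.

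Ccnb1, cyclin B1, which activates Cdk1 for mitosis (chr13:100778650-100786570, minus strand), was the G2/M gene called at 30 days. Its counts were 0 to 66 (median 12) in the ONH libraries and 13 to 307 (median 66) in the ONP libraries, which equals 0 to 3.56 CPM against 0.600 to 12.3 CPM. The log2FC was -2.11 ± 0.80 (adjusted p = 0.0459). This call was lost in 11 of the 14 fits with a library left out, and the call was kept without ONH library 7, ONP library 2 or ONP library 3. It was also lost by limma-voom (adjusted p = 0.085), with no filter beyond 1 count (adjusted p = 0.0518) and with all 4 groups in a single fit (adjusted p = 0.0774). Cdc20 held 1.94 to 5.61 CPM (median 3.72) in the ONH and 2.70 to 11.7 CPM (median 7.80) in the ONP, and was lower in the ONH of 7 of 7 pools. It did not pass the test without the pairing of the pools (log2FC -0.76, adjusted p = 0.0763), and it passed with the pool as a block (log2FC -0.70, adjusted p = 0.0279).

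Cenpf, a protein of the kinetochore and the G2/M gene with the highest CPM before scaling by length, lay the other way from most of its list. It held 4.56 to 9.75 CPM (median 7.88) in the ONH and 0.782 to 17.9 CPM (median 3.16) in the ONP at 30 days. The ONP value of 17.9 CPM came from pool 7, and the next was 7.43 CPM. The log2FC was 0.58 ± 0.54 (adjusted p = 0.414). Without both regions of pool 7 it was 1.31 (adjusted p = 0.0352), higher in the ONH, and the gene was also called higher without the ONP library of pool 7 alone (adjusted p = 0.022). With all libraries kept, limma-voom called Cenpf higher as well (log2FC 1.29, adjusted p = 0.0431). Of the 9 alternatives other than leaving out a single library, 7 left it uncalled. At 7 days the ONH libraries held 1.74, 4.63, 5.32 and 16.6 CPM and the ONP libraries 0.410, 0.429, 2.47 and 3.63 CPM, with a log2FC of 2.04 ± 0.86 (adjusted p = 0.145). At 7 days 12 of the 15 G2/M genes tested had a log2FC above 0 (median 0.47, beside 0.07 for all genes) and 0 passed the test, by edgeR or DESeq2, whereas at 30 days 2 of 17 had one above 0. The share of all genes above 0 was 54.2% at 7 days and 49.7% at 30 days. The median at 7 days was 0.08 without ONH library 6 and -0.49 by limma-voom, so its direction was not settled. Whether the G2/M genes differed between the days in this was tested by the interaction given below. At 7 days 2 of the 31 members tested were called, Ccnd1 and Ccnd2, where 13.2% of the 14752 genes tested were called, 6.34% higher and 6.81% lower. DESeq2 called the same pair, and 18.9% of all genes.

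**Figure D3:**
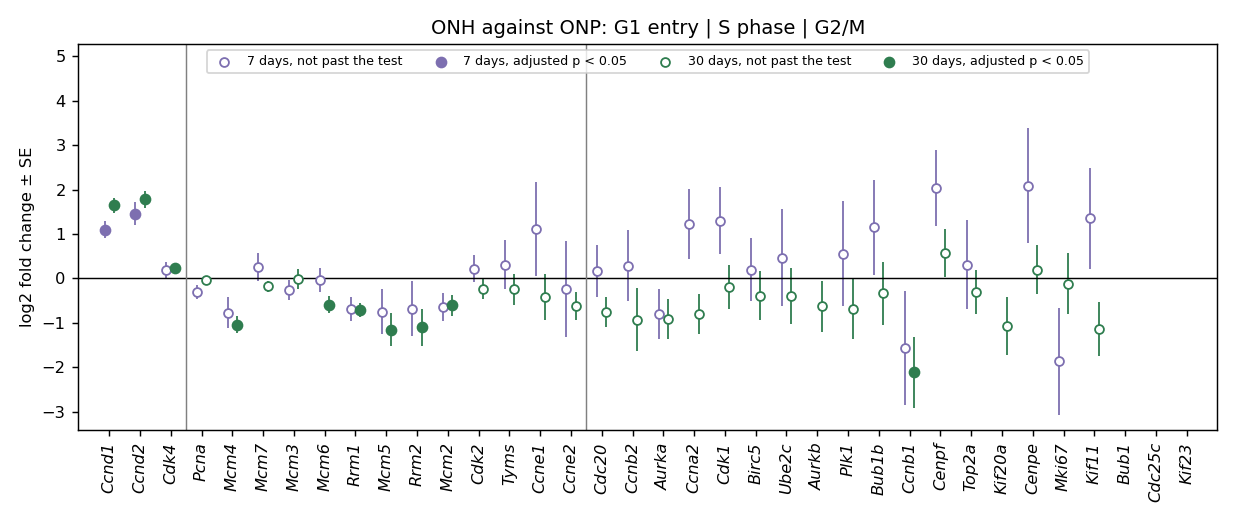
Log2 fold change of each gene in the ONH against the ONP at 7 and 30 days, with bars for the SE and filled points for an adjusted p under 0.05. The D cyclins are filled and above 0 at both days, 6 S phase genes and Ccnb1 are filled and below 0 at 30 days, and genes without a point did not pass the filter on low counts.

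Markers of other cells were compared between the regions as well. Oligodendrocyte precursors, a cell type that divides in the adult nerve, were followed by 8 markers (Pdgfra, Cspg4, Olig1, Olig2, Sox10, Vcan, Gpr17 and Lhfpl3). Olig1, Olig2 and Sox10 are expressed in mature oligodendrocytes too, so this list does not tell the precursors from them. At 30 days the 8 summed to 347 to 759 CPM in the 7 ONH libraries and 965 to 1597 CPM in the 7 ONP libraries. Of the 8, 7 were called lower in the ONH. Of the 8 oligodendrocyte markers 6 were called lower, of the 10 microglia and macrophage markers 1, and of the 10 astrocyte markers 4 were called lower and 1 higher. Beside these counts, 20% of all genes tested at 30 days were called lower and 21.8% higher. At 7 days the precursor markers summed to 378 to 544 CPM in the ONH and 1592 to 1995 CPM in the ONP. Of the 8, 6 were called lower in the ONH, where 6.81% of all genes were. The part of these cells in the region differences of the S phase genes and of the D cyclins was not tested. None of the precursor, oligodendrocyte, microglia or astrocyte markers was at 0 in any library.

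The second question was whether the genes changed between 7 and 30 days. In the ONP, 2 of the 36 members were called, both upregulated, where 17.0% of the 15491 genes tested were called, 7.82% higher and 9.21% lower. All 20 G2/M genes had a log2FC above 0, from 0.11 (Mki67) to 4.42 (Aurkb), where 49.3% of all genes tested did. Their median was 1.29, beside 0.19 for the S phase genes, -0.27 for the G1 entry genes and -0.01 for all genes. Of the 20, 6 had an unadjusted p under 0.05, where 32.6% of all genes did. Genes of a list can move together in a library, so the 20 values are not independent. Some of the 20 also passed the filter only through the 30 day libraries. In the ONP at 7 days Aurkb held 0, 0, 0 and 10 counts, Bub1 0, 0, 0 and 26. Cdc25c held 0, 0, 0 and 22 counts there, and Kif23 0, 1, 12 and 4. This favours a log2FC above 0, so the 20 of 20 and the median cannot be set against all genes. Nothing is read from them alone. With DESeq2, the tool of the authors, 7 of the 36 members were called (Cdk4, Rrm2, Ccna2, Cdk1, Cdc20, Aurkb and Kif20a), where 20.2% of the 18387 genes with an adjusted p were called.

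Aurkb encodes aurora kinase B, the kinase of the chromosomal passenger complex (chr11:69045647-69051664, plus strand). Its counts were 0, 0, 0 and 10 in the 4 ONP libraries at 7 days and 15 to 181 (median 35) in the 7 libraries at 30 days. The groups did not overlap, which was so for 12% of all genes tested. The log2FC was 4.42 ± 1.10 (adjusted p = 0.0186), and its size depends on how the fit treats libraries at 0. Aurkb was called in all 11 fits with a library left out, with a log2FC of 3.88 to 8.69, the highest of them without ONP library 6 of 7 days, the one that held counts. Its call was lost with all 4 groups in a single fit (adjusted p = 0.0527). Rrm2 held 1.72, 2.50, 3.13 and 3.90 CPM at 7 days and 3.57 to 15.7 CPM (median 7.84) at 30 days, ranges that overlapped narrowly. It was upregulated with a log2FC of 1.56 ± 0.42 (adjusted p = 0.0253). Its call was lost without ONP library 2 of 7 days (adjusted p = 0.0718), without ONP library 5 of 7 days (adjusted p = 0.0609), and without pools 4 and 7 of 30 days together (log2FC 1.09, adjusted p = 0.0617). It was also lost by limma-voom (log2FC 1.38, adjusted p = 0.0698) and with all 4 groups in a single fit (adjusted p = 0.0688).

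None of the other G2/M genes of the ONP passed edgeR's test. Cdc20 held 2.01, 2.57, 3.19 and 4.90 CPM at 7 days and 2.70 to 11.7 CPM (median 7.80) at 30 days. Cdk1, the kinase that drives mitosis, held 0.613, 0.954, 1.57 and 2.30 CPM at 7 days and 0.949 to 10.1 CPM (median 3.07) at 30 days. In both genes the higher libraries of 30 days lay above all of 7 days while the lower ones did not. Ccna2, cyclin A2, held 0.937, 1.27, 1.53 and 3.44 CPM at 7 days and 1.67 to 9.39 CPM (median 3.78) at 30 days. Top2a, the topoisomerase that untangles chromosomes, held 0.429, 1.08, 1.93 and 3.34 CPM at 7 days and 1.92 to 8.27 CPM (median 2.63) at 30 days. Mki67, the most used marker of cycling cells, held 0.255, 0.899, 1.64 and 3.56 CPM at 7 days and 0.300 to 3.16 CPM (median 1.80) at 30 days, so that its highest library was one of 7 days. Cenpf held 0.782 to 17.9 CPM at 30 days, and its log2FC was 1.53 ± 0.91 (adjusted p = 0.263).

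Rrm2 aside, the S phase and G1 entry genes of the ONP did not pass the test either. Pcna held 70.4, 73.0, 77.7 and 83.9 CPM at 7 days and 65.5 to 80.7 CPM (median 68.4) at 30 days (log2FC -0.13 ± 0.08, adjusted p = 0.319). Mcm4, whose levels did not overlap between the regions, had a log2FC of 0.01. Ccnd2 held 157 to 322 CPM at 30 days against 199 to 463 CPM at 7 days (log2FC -0.38 ± 0.22, adjusted p = 0.263). Of the 13 S phase genes, 9 had a log2FC above 0 and Rrm2 alone was called.

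Markers of other cells differed between the days in the ONP as well. Of the 8 oligodendrocyte markers 7 were called lower at 30 days, with sums of 25098 to 82177 CPM against 80312 to 105230 CPM at 7 days. Of the 8 endothelial markers 5 were called lower (14.6 to 118.0 against 128.0 to 195.1 CPM), of the 9 markers of surface epithelium tested 1 was called lower (5.95 to 66.6 against 13.0 to 89.0 CPM), and of the 8 precursor markers 1 was called higher and 1 lower (965 to 1597 against 1592 to 1995 CPM). Of the 10 microglia and macrophage markers 0 were called (249 to 4588 against 1539 to 2556 CPM). Of the 10 astrocyte markers 2 were called higher and 0 lower (15047 to 33574 against 15235 to 21763 CPM). Beside these counts, 7.82% of all genes tested were called higher and 9.21% lower. Endothelial markers were at 0 in no library, while 8 of the 11 epithelial markers, Krt5, Krt14 and Trp63 among them, were at 0 in some. The part of these cells in the values of Rrm2 and the G2/M genes was not tested.

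In the ONH, 0 of the 33 members tested were called between 7 and 30 days by edgeR, where 0.0% of the 15668 genes were called, and 0 members had an unadjusted p under 0.05, where 13.9% of all genes did. DESeq2 called 0 members, and 446 genes (2.48%). The log2FC was -0.03 ± 0.21 for Ccnd2 (adjusted p = 0.956), 0.17 ± 0.15 for Pcna (adjusted p = 0.627) and 0.09 ± 0.46 for Cenpf (adjusted p = 0.946). The median was -0.11 for the S phase genes and 0.08 for the 17 G2/M genes tested, of which 9 had a log2FC above 0. Aurkb, called in the ONP, held 0, 0, 34 and 82 counts in the ONH at 7 days and 12 to 85 counts at 30 days. Of the 8 endothelial markers 8 had a log2FC below 0 here (median -1.97), as had 9 of the 9 epithelial markers tested (median -2.86). None was called by edgeR. DESeq2 called 4 of 8 endothelial, 4 of 9 epithelial and 1 of 9 astrocyte markers, beside 2.48% of all genes. It called 0 precursor, oligodendrocyte or microglia and macrophage markers. The part of these cells in the ONH values was not tested.

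**Figure D4:**
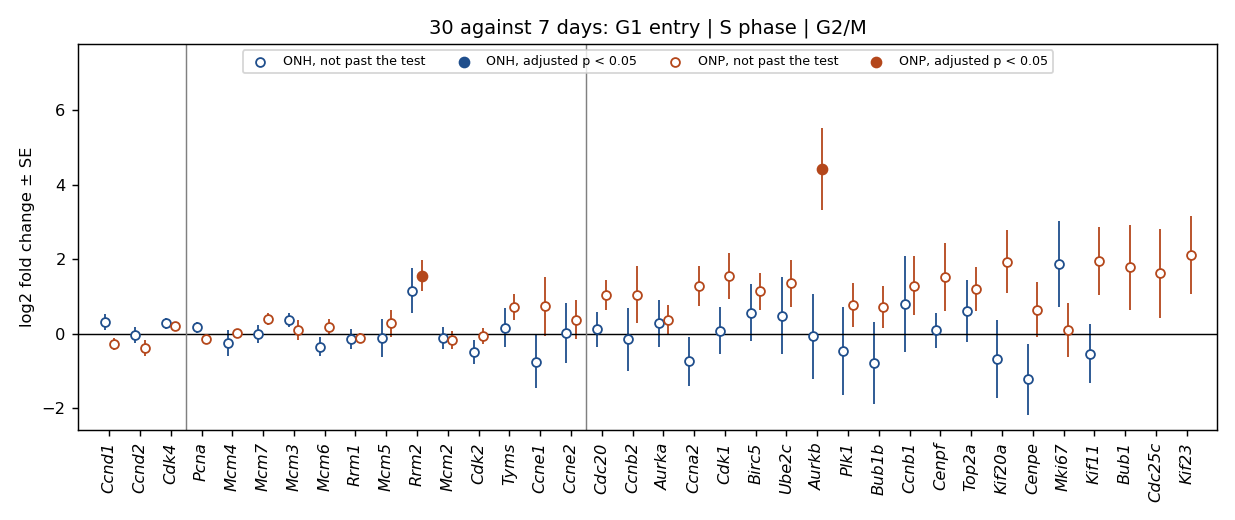
Log2 fold change of each gene at 30 against 7 days in the ONH and the ONP, with bars for the SE and filled points for an adjusted p under 0.05. All 20 G2/M genes of the ONP lie above 0 while those of the ONH lie on both sides, and Rrm2 and Aurkb in the ONP are the filled points.

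The difference between the regions in this change was tested itself, as an interaction over the 4 groups. Of the 36 members 0 were called by edgeR, where 0.543% of the 16748 genes tested were called, and DESeq2 called 0 as well, where it called 2.28% of the genes with an adjusted p. Aurkb and Ccna2 had an unadjusted p under 0.05, where 12.6% of all genes did. The median difference (ONP minus ONH) was 1.35 on the log2 scale for the G2/M genes and 0.40 for the S phase genes, beside 0.01 for all genes. By limma-voom these medians were 0.64 and 0.04, and without ONH library 6 of 7 days 0.66 and 0.07. For Aurkb the difference was 4.53 (adjusted p = 0.247). The change of these genes in the ONP was therefore not shown to differ from that in the ONH.

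The G2/M genes varied widely between the pools of mice at 30 days. Their sum in the ONP was 127.9 CPM in pool 7, 72.1 in pool 4, 52.2 in pools 5 and 6, 33.5 in pool 1, 21.1 in pool 2 and 18.7 in pool 3. The 2 lowest of these lay within the range of the ONP at 7 days, where the sums were 18.2, 19.3, 25.8 and 29.2 CPM. In the ONH libraries of the same numbers the sum was 76.5 CPM in pool 7 and 24.7 to 41.0 CPM in the other 6. Pool 7 was thus highest in both regions, and the ONP was above the ONH in 4 of 7 pools. For the S phase sum the ONP was above the ONH in 7 of 7 pools. Gene by gene, pool 7 held the highest of the 7 libraries for 18 of 20 G2/M genes in the ONP and 13 of 20 in the ONH, and for 7 and 6 of the 13 S phase genes, where it held the highest value for 16.1% of all genes tested in the ONP and 14.2% in the ONH. Of 53 other mitosis genes outside the 36, pool 7 was highest for 37 in the ONP and 22 in the ONH. The mean of the authors' log2 values over the G2/M genes also placed pool 7 first in both regions, at 7.19 in the ONP and 6.64 in the ONH.

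**Figure D5:**
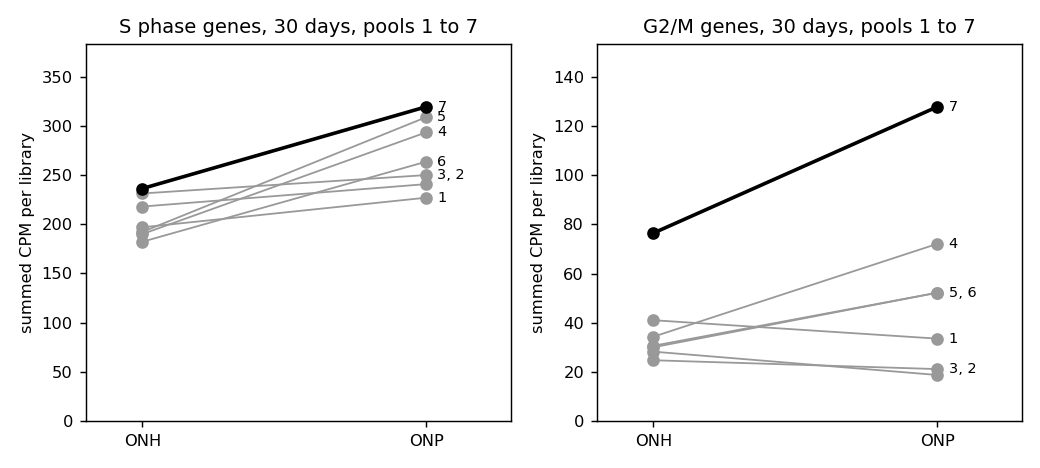
Summed CPM of the S phase and G2/M genes in the ONH and ONP of each pool of 4 mice at 30 days. The regions are matched by replicate number and joined by a line, with pool 7 in black and the pool numbers at the right. The S phase lines all rise from ONH to ONP, while the G2/M lines do so in 4 of 7 pools and pool 7 lies on top in both panels.

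Other values moved with pool 7. Its microglia and macrophage markers summed to 3974 CPM in the ONH and 4588 CPM in the ONP, where the other pools of 30 days held 180 to 1502 CPM in the ONH and 249 to 3636 CPM in the ONP. In all 4 groups the library with the highest G2/M sum was also the highest in these markers. At 7 days these were ONH library 6 (57.0 CPM of G2/M genes and 2035 CPM of markers) and ONP library 6 (29.2 and 2556 CPM), and ONH library 3 was lowest of its group in both (14.4 and 198.5 CPM). The ONP library of pool 5 at 30 days, second in these markers, held a G2/M sum of 52.2 CPM. That of pool 6 held 52.2 CPM as well, with 263.5 CPM of markers. In the ONP at 7 days the lowest G2/M sum was in library 1 (18.2 CPM, with 1780 CPM of markers). The lowest marker sum there was in library 5 (19.3 and 1539 CPM). Precursor and oligodendrocyte markers were each highest in the same library as the G2/M sum in 3 of the 4 groups, and the S phase sum was so in all 4. Precursor markers held 759 CPM in the ONH library of pool 7 against at most 534 CPM in the other ONH pools of 30 days. In the ONP at 30 days precursor and oligodendrocyte markers were highest in pool 5. Hbb-bs, a globin of blood, was at 662 CPM in the ONH library of pool 7 and at most 121 CPM in the other ONH libraries. The part of these cells in the G2/M levels of pool 7 and the 7 day libraries was not tested. Without both regions of pool 7, 9 members were called between the regions at 30 days. Over all genes 5863 of 15120 were then called, beside 6322 of 15133 with pool 7. Cdk4 and Mcm2 (log2FC -0.63, adjusted p = 0.0592) were lost and Cenpf was gained. Without pools 4 and 7, the median G2/M log2FC between 30 and 7 days in the ONP was 0.59 and Aurkb was the member called. Over all genes 2104 of 15132 were called in that fit. Both sets of libraries to leave out were chosen after seeing the data.

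Other genes of the cell cycle, 127 in all, were followed as 4 lists, with up to 6 genes named in each comparison by adjusted p. Of the CDK inhibitors, which hold the cycle in G1, 3 of 6 tested were called higher in the ONH at 30 days (Cdkn2b, Cdkn1a and Cdkn2d, the last pair being named after their values were seen) and 0 lower, where 21.8% of all genes were called higher and 20% lower. Cdkn2b, which encodes p15, an inhibitor of Cdk4, had a log2FC of 1.57 ± 0.16 (adjusted p = 3.06e-06) at 30 days and 0.87 ± 0.25 (adjusted p = 0.0427) at 7 days, the latter a call lost in 6 of 8 fits with a library left out. An inhibitor of the kinase and its D cyclin partners Ccnd1 and Ccnd2 were thus called in the same direction at both days. Of the RB, E2F and DREAM genes, 2 of 20 were called higher and 4 lower at 30 days, beside the same 21.8% and 20%. Ccnd3, the remaining D cyclin, was higher in the ONH with a log2FC of 0.79 ± 0.11 (adjusted p = 4.43e-05) at 30 days and 1.31 ± 0.19 (adjusted p = 0.00161) at 7 days.

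Of the other replication genes, 4 of 43 were called higher in the ONH at 30 days and 8 lower, with a median log2FC of -0.21, where 21.8% of all genes were called higher and 20% lower. The dUTPase gene Dut, which keeps uracil out of DNA, lay the other way from most S phase genes (log2FC 1.06 ± 0.16, adjusted p = 8.48e-05, and 1.16 ± 0.26 at 7 days, adjusted p = 0.014). Orc5, of the origin recognition complex, was lower in the ONH at 30 days (log2FC -0.70 ± 0.15, adjusted p = 0.00159) and at 7 days (log2FC -0.86 ± 0.24, adjusted p = 0.043), and did not overlap between the regions at either. Its 7 day call was lost in 7 of 8 fits with a library left out. The 7 day call of Dut was lost without ONP library 5 (adjusted p = 0.0537). Of the other mitosis genes, 7 of 46 were called higher and 6 lower at 30 days, beside 21.8% and 20% of all genes. Anln, which encodes the contractile ring protein anillin and is also expressed in myelinating cells, had a log2FC of -2.30 ± 0.29 (adjusted p = 1.97e-05) at 30 days and -2.95 ± 0.26 (adjusted p = 0.000224) at 7 days. Spc25, a kinetochore protein, was higher in the ONH with 1.51 ± 0.22 (adjusted p = 8.96e-05) and 2.48 ± 0.52 (adjusted p = 0.0105), and Cks1b, a partner of cyclin dependent kinases, with 1.10 ± 0.16 at 30 days (adjusted p = 6.26e-05). These calls ran in both directions within the list.

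Between 30 and 7 days in the ONP, 7 of the 51 other mitosis genes tested were called higher and 1 lower, with a median log2FC of 0.47, where 7.82% of all genes were called higher and 9.21% lower. Pbk, a kinase of mitotic cells, had a log2FC of 2.32 ± 0.56 (adjusted p = 0.016). Nuf2 and Spc25, both subunits of the Ndc80 complex that binds microtubules at the kinetochore, had log2FC of 1.89 ± 0.47 (adjusted p = 0.0178) and 0.93 ± 0.24 (adjusted p = 0.022). With all 4 groups in a single fit both were lost (adjusted p = 0.152 and 0.116), as they were without pools 4 and 7 (adjusted p = 0.0531 and 0.0557). Spc25 was also lost without ONP library 2 or 6 of 7 days (adjusted p = 0.0573 and 0.0649), and Pbk by limma-voom (adjusted p = 0.0854). Espl1, encoding separase, which cuts the tie between sister chromatids, was downregulated with -1.87 ± 0.40 (adjusted p = 0.00891). Of the other lists in the ONP, 2 of 44 replication genes were higher and 0 lower, and 1 of 21 RB, E2F and DREAM genes was higher (Lin52, of the MuvB complex, log2FC 0.62 ± 0.16, adjusted p = 0.0184, and 0.0557 without ONP library 6 of 7 days). Of the 6 CDK inhibitors tested, 1 was higher and 1 lower, the lower being Cdkn2b (log2FC -0.88 ± 0.16, adjusted p = 0.00448). In the ONH 0 genes of the 4 lists were called between the days by edgeR. An unadjusted p under 0.05 was held by 2 of 6 CDK inhibitors, 2 of 19 RB, E2F and DREAM genes, 2 of 44 replication genes and 4 of 48 mitosis genes, beside 13.9% of all genes. DESeq2 called 3 of 52 mitosis genes and 0 of the other lists, beside 2.48% of all genes. The interaction called 0 genes of the 4 lists by either tool.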

How the data were processed

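Ribosome-bound mRNA of 22 pooled samples was sequenced by the study. The authors aligned reads with STAR (version 2.6.1d) to mm10, estimated counts with Salmon (version 0.14.2) and used DESeq2 (version 1.34.0, in R 4.1.0). They deposited estimated counts per gene as whole numbers, from which all tests were made, and log2 values after a variance stabilizing transformation, used here for list means alone. All 22 columns matched the labels. Those of 7 days matched a group but not a single sample, so their numbers (1, 2, 5 and 6 in the ONP, 1, 3, 5 and 6 in the ONH) are names only. Total counts of 16292489 to 33307092 bear on the counting error of low genes.

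Each comparison was fitted with edgeR (version 4.0.16, R 4.3.3, TMM normalization, filterByExpr with a minimum count of 10, quasi-likelihood test) over its own libraries, and the interaction over all 4 groups. P-values were adjusted by Benjamini-Hochberg over all genes tested, and a call is an adjusted p under 0.05. The SE is the log2 fold change divided by the root of the F statistic. The groups are separate pools of mice, except that both regions were taken from the same mice. At 30 days they were matched by replicate number, which the labels do not state. For the 7 pools of 30 days the deviations from the group means correlated between regions by 0.0767 to 0.471 over 16748 genes. For each ONH library, the ONP library of its own number ranked 1 to 3 among the 7 by this correlation. The fit with the pool as a block was run as an alternative. DESeq2 (version 1.42.0), limma-voom (limma version 3.58.1), other scalings, other filters, a single fit of all groups and leaving out each library were tried as well. Exon lengths came from GENCODE M21 on GRCm38, which held a position for 29322 genes. The fits were tested on simulated counts. They recovered 15.1% of 2-fold changes both in the ONH between the days and between the regions at 7 days. They recovered 54.5% in the ONP between the days and 61.1% between the regions at 30 days. For 4-fold changes these were 67%, 66.4%, 77.8% and 88.6%, in the same order. Of the calls, 2.47% to 10.5% were false. A lack of calls in the ONH between the days thus says little about 2-fold changes. The changed genes were drawn at random from all genes tested, so these rates do not describe the low G2/M genes. The SE of the G2/M genes in that comparison reached 1.29 on the log2 scale (Ccnb1). For such genes a lack of calls says little about 4-fold changes either. The members and lists were chosen with earlier results of these data known. Each member may be named, with full statistics for those called and for the one with the highest mean CPM of each group of genes (Ccnd2, Pcna and Cenpf).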

Additional observations from a re-analysis of the deposited data

Results flagged for a closer look

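In each group of 4 or 7 libraries, the members and the 3 sums were screened for a highest or lowest library far from the rest (Dixon's test). Of 155 groups of values, 17 held such a library, and all 17 were the highest of their group. The rule would mark 1 in 20 (7.8) by chance only if the values were independent and normally distributed. CPM of genes near the limit of detection are skewed upwards, genes of a list can move together in a library, and the sums contain the members. The count of 17 can therefore not be compared with 7.8, and nothing is read from it. The values are CPM, with the next highest library in parentheses.

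The ONH library of pool 7 at 30 days held 6 of them: Ccnb1 at 3.56 (0.841), Aurkb at 4.58 (2.09), Bub1 at 0.755 (0.251), Birc5 at 5.83 (2.49), Ube2c at 4.80 (2.04) and the G2/M sum at 76.5 (41.0). The ONP library of the same pool held 4, which were Ccne1 at 3.28 (1.45), Ccnb1 at 12.3 (4.92), Bub1b at 5.27 (2.39) and Cenpf at 17.9 (7.43). Both libraries carry the same number and were taken to come from the same 4 mice. Rrm1 stood at 47.4 (36.9) in the ONP library of pool 5.

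At 7 days ONP library 6 was the sole library of its group with counts of Cdc25c (0.824), Aurkb (0.375) and Bub1 (0.974), the other 3 libraries being at 0. ONH library 6 of 7 days held Mki67 at 1.35 (0.215) and Kif23 at 2.47 (0.114), and ONH library 3 held Ccnb1 at 1.73 (0.28).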

How the results depend on the processing

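The region calls of Ccnd1, Ccnd2, Mcm4 and Rrm1 at 30 days, and of both D cyclins at 7 days, kept their direction and side of the threshold under every alternative run and without each library in turn. Members called between 30 and 7 days in the ONP numbered 2, against 7 by DESeq2, 1 by limma-voom, 0 with all 4 groups in a single fit and 1 without pools 4 and 7, a choice made after seeing the data. Over all genes the main fit called 2638 of 15491, DESeq2 3711 of 18387 and limma-voom 3173 of 15491. The single fit called 1189 of 16748, and 2104 of 15132 were called without pools 4 and 7. Leaving out a library gave 1 (without 7 day library 2) to 4 (without 7 day library 6). Over all genes these fits called 1815 of 15826 and 1439 of 15779. Between the regions at 30 days, leaving out a library gave 6 (without ONH library 6 or ONP library 5) to 11 members in place of 10. Over all genes it gave 5671 to 6416 calls there, in place of 6322. The median G2/M log2FC of 1.29 in the ONP was 0.59 without pools 4 and 7, and 0.91 to 1.56 with a library left out. Between the regions at 7 days it was -0.49 by limma-voom in place of 0.47, and 0.08 (without ONH library 6) to 0.93 with a library left out. In the interaction, the S phase median of 0.40 was 0.04 by limma-voom and 0.16 with pools as a replicate block (an estimated correlation), and the G2/M median of 1.35 was 0.64 and 0.65. With a library left out they were 0.07 to 0.52 and 0.66 to 1.66, both lowest without ONH library 6 of 7 days. In the ONH between the days, with a library left out, the log2FC was -0.17 to 0.06 for Ccnd2 and -0.23 to 0.93 for Cenpf, and the medians were -0.20 to 0.06 (S phase) and -0.28 to 0.33 (G2/M). The cause of these moves was not tested. With the pool as a block, 11 members were called between the regions at 30 days in place of 10, and Cdc20 was the change. Over all 15133 genes this fit called 6717, in place of 6322. The 10 other calls were kept, with an adjusted p of 0.01 for Rrm2, 0.0263 for Ccnb1 and 0.0419 for both Cdk4 and Mcm2. No paired fit was made for 7 days: the numbers 1, 5 and 6 occur in the columns of both regions, but those columns could not be tied to single samples of the labels, so their numbers were not taken as pairs. Of 359 values of single genes under other alternatives, 336 kept direction and side, 21 lost a call, 2 gained a call and 0 changed direction. Of 552 with a library left out, 493 kept both, 51 lost a call, 1 gained a call and 7 changed direction. Scaling by library size alone moved the median log2FC of all genes by over 0.1 in the ONP between the days, between the regions at 7 days and in the interaction. Low counts limit the 12 G2/M genes that were at 0 in some library. The deepest library, ONH library 3 of 7 days with 33307092 counts, was itself at 0 for Mki67, Aurkb, Bub1, Plk1, Cenpe, Kif23 and Ube2c. The part of depth in these values was not tested.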
